A study of Mus musculus with 2 samples.

Results

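Cells carrying transcripts of Retnlg, a resistin-like protein made by neutrophils late in their maturation, were examined in macrophage cultures grown from the marrow of 129Sv mice. A cell was selected on its measured Retnlg level, at least 10 UMIs (unique molecular identifiers, 1 per captured RNA molecule) per 10000 UMIs of the cell. Of 23101 cells kept after filtering in 2 single-cell libraries, 1723 met that limit, 718 of 12123 treated cells and 1005 of 10978 control cells. They are called Retnlg cells here. The marrow cells had grown with 10% fetal bovine serum and 50 ng/ml M-CSF, which makes macrophages out of marrow precursors. On day 7 the treated cells received 1 µg/ml of a truncated Tamm-Horsfall protein (THP, or uromodulin, a protein made in the kidney) and the control cells its vehicle, 5% dextrose, for 18 h. Each condition was 1 library, and the sources used here do not say how many mice or dishes went into it, so the treatment cannot be told apart from the library or the culture. No comparison has a replicate check, no p-value is given, and every interval is an exact 95% interval that covers counting error only.

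Neutrophils are short-lived phagocytes that develop in the marrow through stages marked by the order in which their granule proteins are made. Azurophil granule proteins such as myeloperoxidase come first, specific granule proteins such as lactoferrin follow, and gelatinase granule and secretory vesicle genes come last, with the chemokine receptor CXCR2 that lets the cells leave the marrow. Microbial products and cytokines act on mature neutrophils through the NF-kB transcription factors, which induce cytokines, chemokines and their own inhibitors. M-CSF cultures are grown to obtain macrophages, and neutrophils are a minority in them. Whether the cells described here remained from the marrow or formed in culture was not tested.

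Retnlg cells were 5.92% of cells kept from the THP library (5.51 to 6.36), and of those from the vehicle library they were 9.15% (8.62 to 9.71). The share describes a limit on 1 gene in 1 library per condition, and its level depends on the limit. At the limit itself, 20 THP and 30 vehicle cells lay between 10 and 12 Retnlg UMIs per 10000, and 31 and 39 cells lay between 8 and 10, outside the selection. S100a8 stood at 51057 CPM (counts per 1000000, a gene's UMIs over all UMIs summed across the cells) in the THP cells just inside and 28988 CPM in those just outside, and at 34356 and 26513 CPM in the vehicle library. Cxcr2 was at 165 CPM just inside and 99.6 CPM just outside with THP, but at 193 and 242 CPM with vehicle. The median UMIs per cell were 5899 just inside and 3514 just outside with THP, and 5775 and 2336 with vehicle. The selected cells held 3205709 UMIs with THP and 4089048 with vehicle. Their median was 2659.5 UMIs and 797.5 genes per cell with THP and 2458 UMIs and 899 genes with vehicle, against 16113 and 17223 UMIs over all kept cells. Thinned to 1000 UMIs each, they showed a median of 390.5 genes with THP and 468 with vehicle. The median mitochondrial share was 0.53% and 0.57%. The 5% of Retnlg cells with most UMIs held 26.7% of their UMIs with THP and 29.8% with vehicle. The libraries shared 42 barcodes, of which 2 were THP and 1 was a vehicle Retnlg cell. A further 91 THP and 74 vehicle barcodes met the Retnlg limit but not the cell filter and were left out.

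The cells carried all 6 of the neutrophil markers used to label them, and none of the 6 passed a 2-fold difference between the libraries. Retnlg (chr16:48872621-48874496, plus strand, mm10) stood at 9884 CPM with THP and 13091 CPM with vehicle. Single cells ranged from 10.2 to 955 Retnlg UMIs per 10000 with THP, median 97.8, and from 10.0 to 1355 with vehicle, median 128. Cxcr2, the receptor for neutrophil-attracting chemokines, was at 393 and 549 CPM, and Ly6g, the surface antigen by which mouse neutrophils are sorted, at 82.0 and 55.3 CPM. Asprv1, an aspartic protease transcript, was at 389 CPM with THP and 226 CPM with vehicle. S100a8 and S100a9, the 2 subunits of the antimicrobial protein calprotectin, were at 72373 and 154448 CPM with THP and at 60321 and 124656 CPM with vehicle. Together they made up 22.7% of the UMIs of THP Retnlg cells and 18.5% of those of vehicle Retnlg cells, so they weigh on every CPM value.

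The 15 genes with the highest fold over the other kept cells were Retnlg, Cxcr2, Asprv1 and 12 more, a description that follows from the selection. Mmp8, neutrophil collagenase, was at 1128 and 1696 CPM in THP and vehicle Retnlg cells and at 46.7 and 67.8 CPM in the other kept cells. Cd177, a neutrophil surface glycoprotein, was at 268 and 370 CPM against 10.5 and 19.4 CPM. Padi4, the enzyme that citrullinates histones when neutrophil extracellular traps form, was at 113 and 263 CPM against 4.63 and 11.7 CPM. The rest were Stfa2, Stfa2l1, Gm5483 (cystatin A-like genes whose near-identical copies make the counts of each uncertain), Il1f9, Mrgpra2b, Mxd1, Ltf, Crispld2 and Rdh12.

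The name mature holds only in part. Camp, encoding the cathelicidin of specific granules, had a UMI in 63.6% of cells thinned to 1000 UMIs with THP (60.01 to 67.2) and in 59.3% with vehicle (56.2 to 62.4). In cells defined by complement transcripts, with at least 10 C1qa, C1qb and C1qc UMIs per 10000 and Retnlg under its limit (C1q cells, 2130 with THP and 1351 with vehicle, a macrophage comparison), the thinned share was 5.3% and 6.1%. Those C1q cells had median depths of 20828 and 21947 UMIs before thinning. Ngp, a granule protein of the same stage, was at 14025 and 14334 CPM, and Ltf, lactoferrin, at 3581 and 5225 CPM in Retnlg cells. The azurophil genes Mpo and Elane, myeloperoxidase and neutrophil elastase, were at 463 and 419 CPM with THP and 337 and 284 CPM with vehicle. Elane had a UMI in 5.7% of thinned THP cells and 7.3% of thinned vehicle cells, the opposite order to its CPM, so no order is read from it. Transcripts of earlier stages were thus inside the selection, and the cells are named by their rule below.

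**Figure D1:**
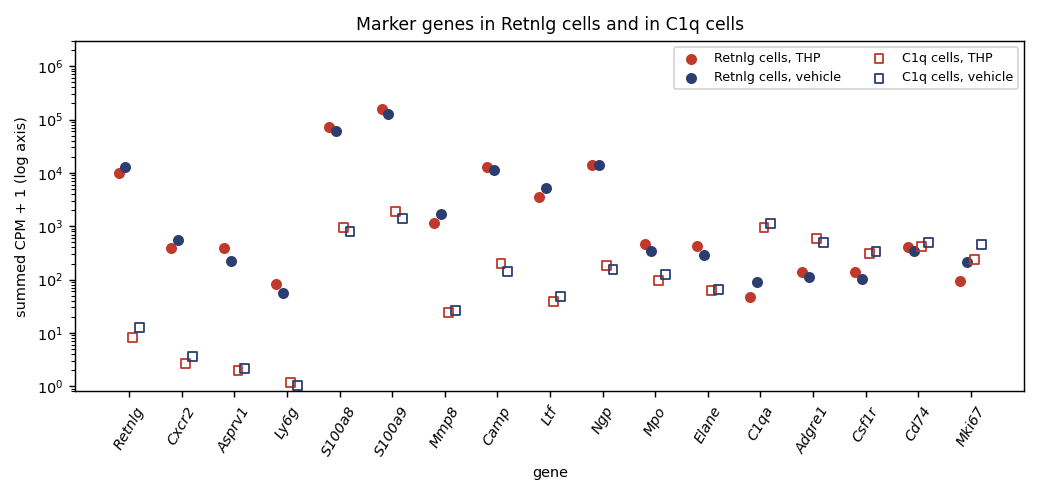
Summed CPM plus 1 (log axis) of 17 marker genes (horizontal axis) in Retnlg cells (filled circles) and C1q cells (open squares) of the THP (red) and vehicle (blue) libraries. Retnlg, Cxcr2, Asprv1, Ly6g and Mmp8 are far higher in Retnlg cells in both libraries, while C1qa, at 46.5 and 89.3 CPM in Retnlg cells, is at 933 and 1116 CPM in C1q cells.

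Transcripts of other cells were present, at levels that differed by cell type. The 10 macrophage markers summed to 732 CPM in THP and 781 CPM in vehicle Retnlg cells, against 5124 and 5721 CPM in C1q cells, and none of the 10 was at 0. The 3 C1q genes together reached 5.83% of their C1q-cell level in THP Retnlg cells and 7.34% in vehicle Retnlg cells, and 17.0% and 11.0% of the cells held at least 1 C1q UMI. The 6 monocyte markers summed to 1462 CPM in THP and 1347 CPM in vehicle Retnlg cells, above the 533 and 582 CPM of C1q cells. Of these 6, Vcan and Ccr2 passed a 2-fold difference, both lower with THP. The 6 antigen-presenting markers summed to 707 and 589 CPM, against 672 and 865 CPM in C1q cells. All 6 erythroid markers were at 0 in the THP Retnlg cells and 4 of 6 in the vehicle cells. Of the 6 lymphocyte markers of T or NK cells, 3 and 4 were at 0. Single cells of other kinds were also inside the selection. A single THP cell gave 164 of the 174 UMIs of the 6 stromal markers, and a single vehicle cell gave 1011 of the 1018 UMIs of the 6 mast cell or basophil markers. Genes that rest on such a cell are named where they appear.

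Within Retnlg cells, 5231 genes reached 20 CPM in at least 1 library. A gene was counted as different when it also differed at least 2-fold on the scale of CPM plus 1. With THP 102 genes (1.95%) were higher and 556 genes (10.6%) were lower. The ratios of all 102 kept their sign, as did those of 553 of the 556, with equal weight per cell, without cells holding a C1q UMI and after subtraction of the macrophage share. These 3 settings also kept the sign of Tagln, Timp1, Cald1 and Sparc, each with nearly all its THP UMIs in 1 cell. At Retnlg limits of 20 and 50, 3 and 5 of the 102 turned negative and 0 and 3 of the 556 positive. Without the 5% of cells with most UMIs these were 3 and 1, and without each gene's top cell 3 and 3. Of the 102 and 556 genes, 90 and 463 were still past the limit with equal weight, 98 and 477 without C1q UMIs and 101 and 530 after the subtraction. The median log2 ratio over the 5231 genes was -0.29, and 95% of them lay between -1.42 and 0.87. Scaling by TMM factors, which centre the bulk of the genes, shifts every ratio by 0.29, and 181 genes were then higher and 216 lower, so that 45.6% of the counted genes were higher in place of 15.5%. RLE factors shift it by 0.30 and gave 183 and 211. The genes counted as higher under the main scale were all counted under both, while 216 and 211 of the 556 lower genes were.

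Lower genes had longer transcripts. Split into 5 groups by the length of the longest annotated transcript, the 5231 genes had median log2 ratios of 0.08, -0.10, -0.32, -0.48 and -0.74 from the shortest to the longest group. The counts of lower genes were 17, 30, 74, 155 and 280 in that order, and those of higher genes 34, 26, 18, 12 and 12. Spearman's rho of log2 ratio against length was -0.53 across genes, which share the same 2 libraries and are not independent replicates. The median length was 5390.5 bases for the lower genes, 2458.5 for the higher ones and 3349 for all. Its part in the lower calls was not tested. When ratios were centred within 20 length groups, an alternative added after seeing the data, 198 genes were higher and 103 lower.

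The clearest group among the higher genes was cytokines and chemokines. Of 33 such genes listed, 15 reached the floor, 9 were at least 2-fold higher (background 1.95%) and none was lower. Their median log2 ratio was 1.56, against -0.29 over all genes at the floor. A gene could reach the floor in either library, and Ccl7, Ccl12 and Cxcl10 reached it with THP only. The filter thus partly sets this count and median. Cxcl2, the chemokine that draws neutrophils through CXCR2 (chr5:90903871-90905938, plus strand, mm10), had 4244 UMIs with THP and 292 with vehicle. That is 1324 CPM (1284 to 1364) and 71.4 CPM (63.4 to 80.1), a log2 ratio of 4.19, which ranged from 3.86 to 4.92 over the alternative settings. Il1b, encoding the inflammatory cytokine interleukin 1 beta, was at 653 CPM with THP and 136 CPM with vehicle, a log2 ratio of 2.26. Tnf, tumour necrosis factor, was at 132 and 31.5 CPM with a log2 ratio of 2.03. Ccl3 and Ccl4, chemokines of monocytes and lymphocytes whose related sequences can share reads, were at 543 and 113 CPM with THP and 183 and 21.03 CPM with vehicle. The monocyte chemokine Ccl7 was at 71.1 and 19.1 CPM, and Cxcl16 at 51.8 and 25.2 CPM. Ccl12 and Cxcl10 had few UMIs, 116 and 108 with THP and 11 and 10 with vehicle, of which 1 cell gave 50.0% and 27.8% of those with THP. Without the top cell of each library, their log2 ratios were 3.103 and 2.98.

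Other cytokines did not pass the 2-fold limit. Il1rn, the interleukin 1 receptor antagonist, was at 81.7 and 49.2 CPM, Osm at 44.6 and 35.7, Ccl2 at 277 and 171, and Tgfb1 at 148 and 134 CPM. Ccl6, abundant in resting myeloid cells, was at 527 CPM with THP and 806 CPM with vehicle. Cxcl1, like Cxcl2 a CXCR2 ligand, had 62 UMIs with THP and 5 with vehicle but stayed under the floor at 19.3 CPM. No UMI of Il6, Il12b, Il23a or Cxcl5 was counted in either library, which covers the summed Retnlg cells at this depth.

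Thinned to 1000 UMIs, Cxcl2 had a UMI in 40.8% of cells with THP (37.2 to 44.5) and in 5.4% with vehicle (4.1 to 7.0). For Il1b the shares were 35.5% (32.0 to 39.1) and 15.3% (13.2 to 17.7), and for Tnf 13.5% (11.1 to 16.2) and 4.2% (3.0 to 5.6). Unthinned, Cxcl2 had a UMI in 56.7% and 10.4% of the cells and Il1b in 51.0% and 21.3%. C1q cells thinned to the same depth held a Cxcl2 UMI in 38.5% and 10.4% of cells and an Il1b UMI in 8.3% and 0.5%. The Cxcl2 share of vehicle Retnlg cells lay below that of vehicle C1q cells, which hold Cxcl2 themselves. The part of free RNA in these shares was not tested. With THP, 179 of 718 thinned Retnlg cells (24.9%) held both Il1b and Cxcl2, against 21 of 1005 vehicle cells (2.09%). If the RNA of Retnlg cells held the macrophage RNA that the C1q genes would allow, C1q cells would account for 39.6 of the 1324 CPM of Cxcl2 and for 5.80 of the 653 CPM of Il1b with THP. With vehicle they would account for 10.4 of the 71.4 CPM of Cxcl2 and for 0.40 of the 136 CPM of Il1b. This estimate scales by the C1q genes only, so it cannot bound RNA from macrophages or monocytes low in C1q. The 10 macrophage markers stood at a larger fraction of their C1q-cell level than the C1q genes did. All other kept cells together held Cxcl2 at 609 CPM with THP and 120 CPM with vehicle.

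Genes of the NF-kB pathway were higher with THP as well. Of 30 listed subunits, inhibitors and targets, 26 reached the floor, 15 were at least 2-fold higher and none was lower. The median log2 ratio was 1.29. Many of the 15 reached the floor with THP only, including Nfkb2, Relb, Nfkbie, Tnfaip3, Icam1, Traf1, Pde4b and Ptgs2. The filter thus sets much of this count and also acts on the median. Among the subunits, Nfkb2 was at 77.7 CPM with THP and 15.4 CPM with vehicle and Relb at 68.0 and 15.9 CPM. Nfkb1, at 123 and 70.7 CPM, Rela, at 58.6 and 40.1 CPM, and Rel, at 61.1 and 61.6 CPM, did not pass the limit. Inhibitors that close the pathway's feedback loop were also higher. Nfkbia, encoding the inhibitor IkB alpha, had 2481 UMIs with THP and 981 with vehicle, 774 and 240 CPM, a log2 ratio of 1.69. Nfkbie was at 39.6 and 8.56 CPM, Tnip1 at 147 and 31.3 CPM and Tnfaip3, encoding the deubiquitinase A20, at 32.4 and 11.2 CPM. Irak3, which restrains signalling from Toll-like receptors, was at 192 and 72.6 CPM.

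The NF-kB list's largest difference was in Sod2, mitochondrial superoxide dismutase. It had 3129 UMIs with THP and 363 with vehicle, 976 CPM (942 to 1011) and 88.8 CPM (79.9 to 98.4), a log2 ratio of 3.44, and a UMI in 54.6% of thinned THP cells against 5.3% of thinned vehicle cells. Icam1, the ligand of leukocyte integrins, was at 78.3 and 13.2 CPM, Traf1 at 22.1 and 3.18 CPM and Pde4b, a cyclic AMP phosphodiesterase, at 68.6 and 16.4 CPM. Ptgs2, the inducible cyclooxygenase, was at 26.2 and 10.8 CPM, a difference within the limit with equal weight per cell (log2 ratio 0.96). Nfkbiz, at 101 and 74.6 CPM, and Tnfaip2, at 161 and 175 CPM, were not counted as different. The background beside this list, too, was 1.95% of genes counted higher. Sod2, Icam1, Ptgs2, Birc3 and Slc7a11 also stand in other lists below and are counted again there.

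**Figure D2:**
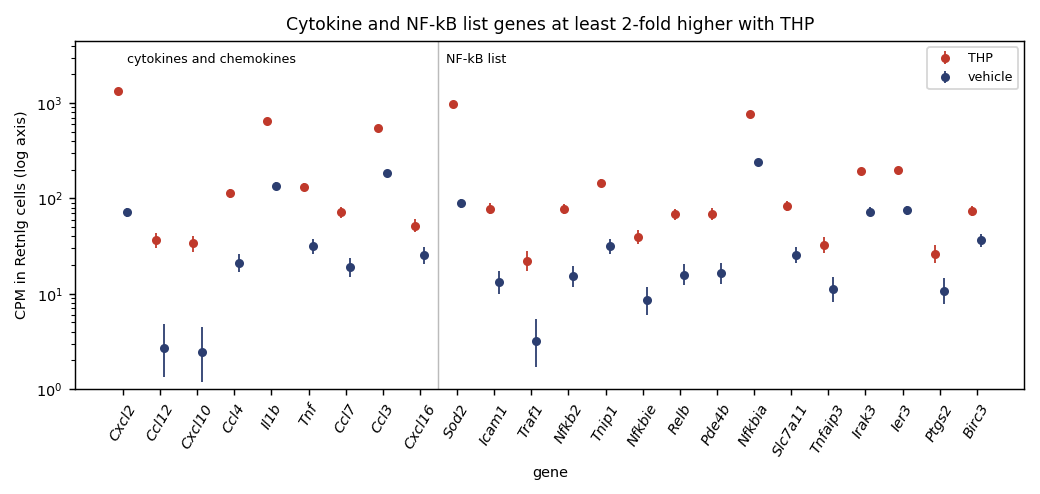
CPM in Retnlg cells (log axis, with exact Poisson 95% intervals) of the 9 cytokine genes and 15 NF-kB list genes (horizontal axis) that were at least 2-fold higher with THP (red) than with vehicle (blue). The intervals of the 2 libraries do not overlap for any of the 24 genes, nor for any of the 102 higher and 556 lower genes. The choice of genes at least 2-fold apart largely sets this, and it speaks to counting error only.

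The 15 genes with the highest ratios under the naming rule, chosen apart from the NF-kB list, were searched for the letters GGGANNTTC. These letters are a core of the NF-kB motif. The search covered both strands of the 250 bases before each RefSeq start (GRCm38.p6). The 15 include Tagln, Timp1, Cald1 and Sparc, each with nearly all its THP UMIs in 1 cell. RefSeq held 14 starts for 12 of the 15 genes. Of these 14, 3 starts held the letters, those of Cxcl2, Cxcl10 and Gpr84, which is 21.4%, against 3.23% of all 32851 starts. The search was widened from the 4 highest genes to these 15 after seeing the data. The windows around the matches are shown 5′ to 3′ on the strand of the gene with the matched letters in capitals. They lie at chr5:90903777-90903837 (plus strand), chr5:92349015-92349073 (minus strand) and chr15:103310539-103310597 (minus strand).
Cxcl2: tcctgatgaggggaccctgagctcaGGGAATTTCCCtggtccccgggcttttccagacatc
Cxcl10: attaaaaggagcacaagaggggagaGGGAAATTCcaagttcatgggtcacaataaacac
Gpr84: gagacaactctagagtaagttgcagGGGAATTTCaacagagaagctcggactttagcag

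The Cxcl2 match is 2 overlapping ones, 1 on each strand, and begins 97 bases before the start. The Cxcl10 match begins 159 bases and the Gpr84 match 134 bases before it, and Gpr84 has a further match nearer its start that is not shown. Sod2, Acod1 and Saa3 had no match in this window. A match of letters is a description of the sequence and not a measured binding site, and its absence from these 250 bases says nothing of the factor.

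Receptors that sense microbial products were divided. Of 33 listed genes of pathogen sensing and inflammasomes, 21 reached the floor, 5 were higher (background 1.95%) and 2 lower (background 10.6%), with a median log2 ratio of -0.09. Cd14, the co-receptor for lipopolysaccharide, had 5299 UMIs with THP and 1657 with vehicle, 1653 and 405 CPM, a log2 ratio of 2.03, and a UMI in 72.6% and 35.1% of thinned cells. Clec4e, the Mincle receptor for mycobacterial glycolipid, was at 816 and 225 CPM, a log2 ratio of 1.85. Tlr2 was at 148 and 72.4 CPM, Clec5a at 441 and 216 CPM and Casp4, the sensor of cytosolic lipopolysaccharide, at 43.0 and 20.1 CPM. Tlr4 was at 14.7 and 27.4 CPM and Nlrp3 at 138 and 99.3 CPM, both within the limit. Nlrp12, a regulator of the NLR family, was at 7.17 CPM with THP and 31.3 CPM with vehicle, a log2 ratio of -1.98, and Aim2, a sensor of cytosolic DNA, at 27.5 and 58.2 CPM, -1.06. Aim2 was within the limit after length centring, at -0.87, and with TMM, at -0.77, and Casp4 with equal weight per cell, at 0.93.

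Receptors for chemoattractants and adhesion showed no common direction. Of 25 listed, 22 reached the floor, 3 were higher and 1 was lower (backgrounds 1.95% and 10.6%), with a median log2 ratio of -0.27 that was 0.17 after length centring. Besides Icam1, the higher genes were Ccrl2, a chemerin-binding receptor, at 92.6 and 14.9 CPM with a log2 ratio of 2.56, and Fpr1, the receptor for bacterial formyl peptides, at 645 and 295 CPM with 1.13. Fpr2 was at 737 and 497 CPM. Cxcr4, the receptor that holds neutrophils in the marrow, was at 80.5 and 122 CPM and Itgam, an integrin chain, at 296 and 389 CPM.

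Genes of late maturation were mostly within the 2-fold limit. Of 24 listed, 23 reached the floor, 2 were higher and 2 lower, beside backgrounds of 1.95% and 10.6%, and the median log2 ratio was 0.28. Slpi, a secreted inhibitor of neutrophil proteases, was at 723 CPM with THP and 222 CPM with vehicle, a log2 ratio of 1.70. Hdc, the enzyme that makes histamine, was at 265 and 123 CPM, 1.10. Padi4 was among the lower genes, its 361 UMIs with THP and 1075 with vehicle giving a log2 ratio of -1.22, which was -0.93 with TMM. Hdc was within the limit, at 0.95, when the Retnlg limit was 5. Mmp9, gelatinase B, was at 1240 and 1216 CPM, and Csf3r, the receptor for G-CSF, at 161 and 258 CPM. The cystatin A-like genes Stfa2l1 and Gm5483 were at 536 and 565 CPM with THP and 309 and 335 CPM with vehicle.

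Granule contents and the oxidase gave no gene past the limit in either direction, beside backgrounds of 1.95% higher and 10.6% lower. This held for 19 specific and gelatinase granule genes at the floor, with a median log2 ratio of -0.03, for 6 azurophil genes, with 0.51, and for 10 genes of the phagocyte oxidase and its partners, with 0.01. Lcn2, lipocalin 2, which withholds iron from bacteria, was at 18716 CPM with THP and 14445 CPM with vehicle, and Hp, haptoglobin, at 1614 and 995 CPM. Cybb, the membrane core of the oxidase, was at 1413 and 1406 CPM.

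Survival genes and death genes were both among those higher. Of 29 listed, 20 reached the floor, 5 were higher and 1 was lower, beside backgrounds of 1.95% and 10.6%. Bcl2a1b, a survival gene with near-identical copies that make its counts uncertain, was at 70.8 and 17.9 CPM, a log2 ratio of 1.93, and Birc3, which blocks death signalling from the TNF receptor, at 73.9 and 36.2 CPM, 1.01. Pim1, a survival kinase, was at 139 and 56.0 CPM, 1.29. The death receptor gene Fas was at 288 and 91.7 CPM, 1.64, seen in 30.4% and 13.5% of thinned cells, and Bcl2l11, encoding the death-promoting protein BIM, at 67.4 and 27.4 CPM, 1.27. Mcl1, on which neutrophils depend for survival, was at 635 and 668 CPM.

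Iron and antioxidant genes held 5 higher members. Of 25 listed, 20 reached the floor, 5 were higher and 1 lower, beside backgrounds of 1.95% and 10.6%, with a median log2 ratio of 0.02. Fth1, the ferritin heavy chain that stores iron, was one of the most abundant transcripts of these cells, at 16350 CPM with THP and 7936 CPM with vehicle, a log2 ratio of 1.04, while the ferritin light chain gene Ftl1 was at 7178 and 8478 CPM. Slc40a1, the iron exporter ferroportin, was at 43.0 and 137 CPM, -1.65. Acod1, which makes itaconate, was at 170 and 17.4 CPM, 3.22, and Slc7a11, the cystine transporter, at 83.9 and 25.4 CPM, 1.68. Saa3, an acute-phase serum amyloid A gene, had 305 and 10 UMIs, 95.1 and 2.45 CPM, a log2 ratio of 4.80. Its UMIs lay in 52 THP cells, and in C1q cells of the same libraries it stood at 145 and 10.4 CPM.

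The glycolysis and transcription factor lists held genes on either side of the limit. Slc2a1, the glucose transporter GLUT1, was at 62.1 CPM with THP and 22.3 CPM with vehicle, a log2 ratio of 1.44, while Slc2a3, the transporter GLUT3, was at 90.8 and 241 CPM, -1.40. The lactate exporter Slc16a3 was at 186 and 87.3 CPM, 1.08, and Pygl, glycogen phosphorylase, at 303 and 635 CPM, -1.06. In the glycolysis list 21 of 25 genes reached the floor, 2 were higher and 3 lower, beside backgrounds of 1.95% and 10.6%, with a median of 0.03. After length centring Slc2a3 was at -0.74 and Pygl at -0.75, both within the limit. Cebpb, the factor of emergency granulopoiesis, was at 908 and 333 CPM, 1.44, and Ets2 at 89.8 and 23.7 CPM, 1.88. Cebpa was at 13.7 and 31.1 CPM, -1.12, and the glucocorticoid-induced Tsc22d3 at 15.3 and 36.4 CPM, -1.20. Cebpa was at -0.91 after length centring, and with TMM Cebpa was at -0.85 and Tsc22d3 at -0.92. Cebpd and Cebpe, at 465 and 144 CPM with THP and 469 and 213 CPM with vehicle, stayed within the limit. Of 28 listed factors 24 reached the floor, 2 higher and 2 lower, beside the same backgrounds of 1.95% and 10.6%.

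The remaining lists held few or no counted genes, each beside backgrounds of 1.95% higher and 10.6% lower. None of 22 interferon-stimulated genes at the floor passed the limit, and their median log2 ratio was -0.18, with Isg15 at 96.7 and 66.0 CPM. Cytokine receptors and feedback regulators had 0 higher and 3 lower of 22, Il6ra at 43.4 and 98.3 CPM, Tgfbr1 at 17.8 and 44.3 CPM and Stat5b at 19.3 and 46.5 CPM, beside a background of 10.6% lower. After length centring none of the 3 passed the limit, with Il6ra at -0.31, Tgfbr1 at -0.65 and Stat5b at -0.66, and the list's median went from -0.52 to -0.01. Of 22 Fc and phagocytic receptor genes, 2 were higher and 1 lower. Olr1, a scavenger receptor for oxidised lipoprotein, was at 27.1 and 8.56 CPM, and the inhibitory receptor gene Lilrb4a, whose relative Lilr4b makes its counts uncertain, at 95.1 and 314 CPM. In the list of immediate early genes, which also react to the detachment of cells, Fos was at 70.2 and 151 CPM and 13 of 14 were within the limit, as Fos was with TMM, at -0.80. Of 9 eicosanoid synthesis genes 8 had a log2 ratio below 0 and only Ptgs2 was past the limit. Of 26 cell cycle genes 1 was higher and 2 lower, with Mki67 at 91.4 and 217 CPM, a log2 ratio of -1.24 that was -0.38 after length centring.

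**Figure D3:**
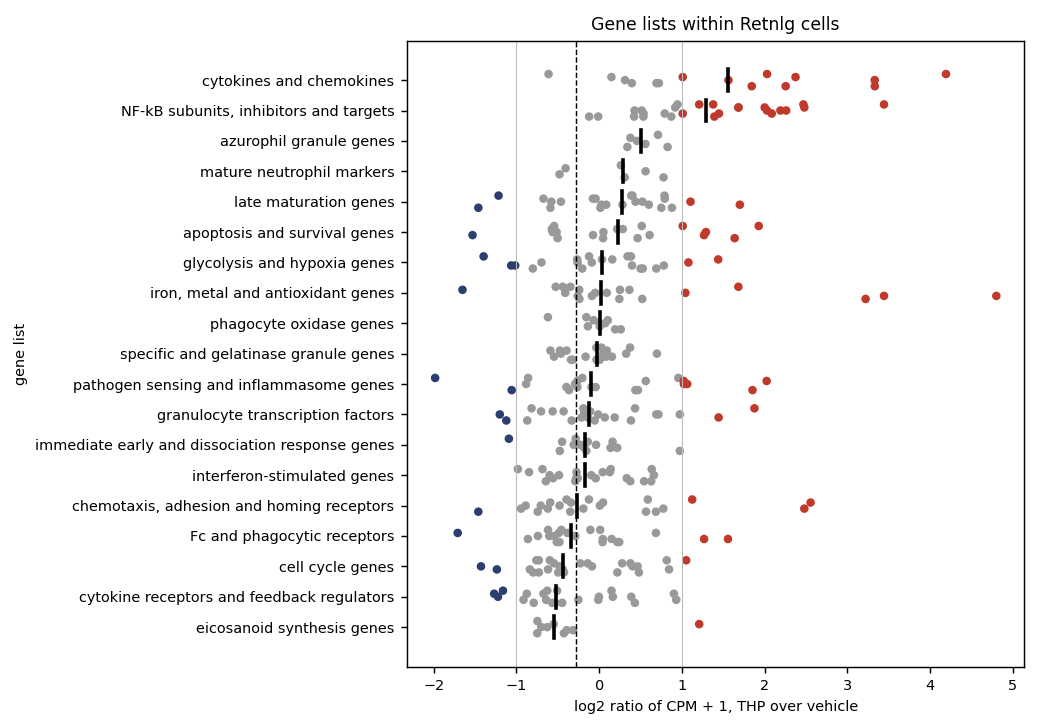
Log2 ratio of CPM plus 1, THP over vehicle (horizontal axis), of each list gene at the floor of 20 CPM in Retnlg cells, by list (vertical axis). Red and blue points are at least 2-fold higher and lower, black bars are list medians and the dashed line is the median of all 5231 genes, -0.29; the medians of the cytokine list, 1.56, and the NF-kB list, 1.29, lie furthest right.

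Outside the lists, several of the highest ratios rested on single cells. Tagln, a smooth muscle actin-binding protein, had 179 UMIs with THP and 3 with vehicle, a CPM ratio of 76.1 (25.6 to 373), but 98.9% of the THP UMIs came from 1 cell. The same held for Timp1, with 99.6% of 236 UMIs, Cald1, with all 71, and Sparc, with 98.5% of 67. The antibody genes Igkc, Ighm and Jchain had log2 ratios of 3.90, 3.22 and 3.81, and 64.9%, 72.3% and 67.2% of their THP UMIs lay in 1 cell each. Without the top cell of each library the 3 log2 ratios were 2.53, 1.54 and 2.35. At a Retnlg limit of 50 they were 0.85, 0.44 and 0.75, all within the 2-fold limit. Of the 102 higher genes 8 had over 50% of their THP UMIs in 1 cell.

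Others among the highest were spread over many cells. Gpr84, a receptor for medium-chain fatty acids, had 792 UMIs in 379 THP cells and 134 in 104 vehicle cells, 247 and 32.8 CPM, a log2 ratio of 2.88. Ralgds, an exchange factor for Ral GTPases, was at 43.4 and 6.11 CPM, 2.64. Thbs1, thrombospondin 1, had 2524 UMIs in 501 THP cells and 1238 in 378 vehicle cells, 787 and 303 CPM, 1.38. Among the lowest, Rasa3, a Ras GTPase-activating protein, was at 19.0 CPM with THP and 102 CPM with vehicle, a log2 ratio of -2.37, and St8sia4, a sialyltransferase, at 28.4 and 135 CPM, -2.21. Hist1h1e, a linker histone gene whose family members can share reads, was at 71.4 and 327 CPM, -2.18, and Trp53inp1, a p53 target, at 14.7 and 67.3 CPM, -2.12. These lower genes are mostly long, with transcripts of 4404 bases for Rasa3, 10027 for St8sia4 and 5432 for Trp53inp1, whereas Hist1h1e has 1930. Centring by length left St8sia4 at -1.36, Trp53inp1 at -1.50, Rasa3 at -1.96 and Hist1h1e at -2.18, while lower genes of several lists did not pass the limit after it.

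Retnlg cells varied in their granule transcripts, and the inflammatory genes varied with them. The cells of both libraries were put in 4 ranges of summed Camp, Ltf and Ngp, with limits at 5.50, 70.9 and 564 UMIs per 10000; a range is a slice of a continuum and not a cell type. The ranges held 177, 174, 184 and 183 THP cells and 254, 257, 246 and 248 vehicle cells, from low to high. In the THP library Cxcl2 was at 2278, 1675, 889 and 545 CPM and in the vehicle library at 123, 113, 54.5 and 13.01 CPM, from the lowest range to the highest. Il1b was at 1144, 997, 297 and 222 CPM with THP and 285, 296, 32.4 and 10.0 CPM with vehicle. Both genes were thus highest in cells with few granule transcripts, in both libraries, and higher with THP in each range. Macrophage transcripts moved along the ranges too, the 10 markers summing to 1065, 1173, 468 and 240.2 CPM with THP and 1483, 673, 822 and 144 CPM with vehicle from low to high. The 6 monocyte markers summed to 1232, 1556, 1573 and 1451 CPM and to 1328, 1086, 1490.4 and 1372 CPM. The part of either in the range values was not tested.

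The size of the difference followed the ranges for some genes only. Slpi had log2 ratios of 2.52, 1.27, 1.27 and 0.45 from the lowest range to the highest, Hdc 2.70, 1.21, 1.03 and 0.56, and Thbs1 2.33, 2.25, 1.56 and 0.60. Sod2 was higher with THP by 2.93, 3.57, 3.41 and 4.30, and Nfkbia by 1.67, 1.32, 1.89 and 1.78. The median of the NF-kB list was 1.24, 1.29, 1.26 and 1.22, and that of the cytokine list 0.89, 1.33, 1.71 and 1.51, beside -0.32, -0.16, -0.40 and -0.29 for all genes at the floor. Median UMIs per cell differed along the ranges, from 2159 to 3512 with THP and from 1883 to 3483 with vehicle, and their part was not tested. With the 4 ranges weighted equally in both libraries, 99 genes were higher and 556 lower.

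**Figure D4:**
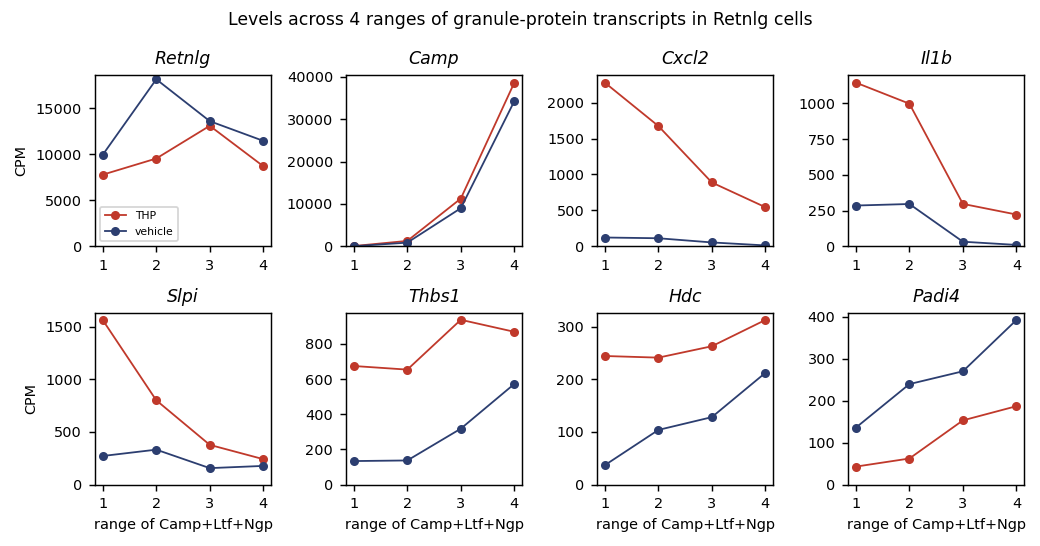
CPM (vertical axes, from 0) of 8 genes in Retnlg cells across the 4 ranges of summed Camp, Ltf and Ngp (horizontal axes, lowest range at left) in the THP (red) and vehicle (blue) libraries. Cxcl2 goes from 2278 to 545 CPM across the THP ranges and lies above the vehicle values, while Padi4 lies below the vehicle values in every range.

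C1q cells of the same cultures were set beside Retnlg cells to show where the values differ. Both kinds of cell come from the same 2 libraries, so whatever differs between the libraries enters both, and with 1 library each the difference between the ratios was not tested. Of 6189 genes at the floor in C1q cells, 63 (1.02%) were higher and 181 (2.92%) lower with THP, with a median log2 ratio of -0.16. In granule-protein cells with Retnlg under its limit (1226 with THP and 1524 with vehicle, at least 50 Camp, Ltf and Ngp UMIs per 10000), 99 of 5694 genes (1.74%) were higher and 224 (3.93%) lower. The cytokine list had a median of 1.64 in C1q cells and 1.56 in Retnlg cells, and the NF-kB list 1.23 and 1.29.

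Single genes were further apart. Cxcl2 had a log2 ratio of 4.19 in Retnlg cells and 2.25 in C1q cells, where it stood at 679 CPM with THP and 142 CPM with vehicle. Sod2 had 3.44 and 1.48, and in granule-protein cells 2.57. Il1b had 2.26 in Retnlg cells and 3.97 in C1q cells; its vehicle level was 136 CPM in Retnlg cells and 5.41 CPM in C1q cells. Ccl3 had 1.56 and 3.09, from vehicle levels of 183 and 20.4 CPM. Cebpd, an acute-phase transcription factor, had -0.01 and 1.76, and Nfkbiz, a co-activator of secondary NF-kB targets, 0.43 and 2.23; both stood higher in vehicle Retnlg cells, at 469 and 74.6 CPM, than in vehicle C1q cells, at 84.8 and 15.3 CPM.

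A few genes had opposite signs. Thbs1 had 1.38 in Retnlg cells and -0.76 in C1q cells, where it was at 18.6 and 32.1 CPM, and -0.16 in granule-protein cells. Prkd3, protein kinase D3, had 1.41 and -0.35, Arid5b, a chromatin factor, 1.13 (0.99 at a Retnlg limit of 5) and -0.61, and Bcl2l11 1.27 and -0.40. In granule-protein cells Prkd3 had 0.57 and Arid5b 0.91, so their sign there was that of Retnlg cells. Fth1 and Slc7a11 differed in size but not in sign. Fth1 had 1.04 in Retnlg cells and 0.20 in C1q cells, and Slc7a11 1.68 and 0.34.

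**Figure D5:**
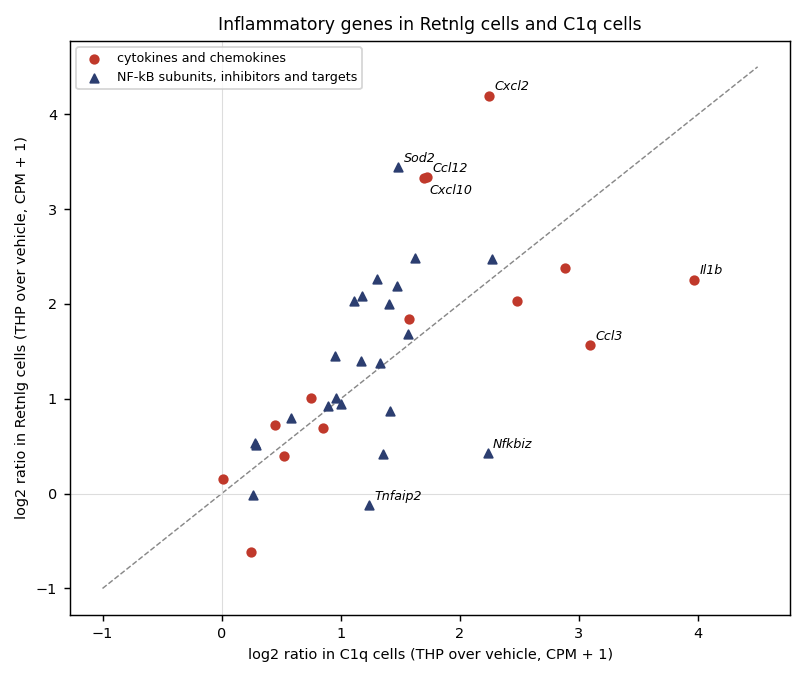
Log2 ratio of CPM plus 1, THP over vehicle, in Retnlg cells (vertical axis) against C1q cells (horizontal axis) for cytokine (red circles) and NF-kB list genes (blue triangles) at the floor in both; the dashed line marks equal ratios and genes over 1 apart are named. Cxcl2 (4.19 and 2.25) and Sod2 (3.44 and 1.48) lie above the line, and Il1b (2.26 and 3.97), Ccl3 (1.56 and 3.09) and Nfkbiz (0.43 and 2.23) below it.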

How the data were processed

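The deposited values are raw UMI counts of 31053 genes in each barcode, written by software version 3.1.0 per the file headers. The submitters' processing notes name Cell Ranger, STAR, bcl2fastq and mm10 without roles. Barcodes with at least 500 genes, at least 1000 UMIs and at most 10% mitochondrial UMIs were kept. Doublets were not removed. Il36g and Clec7a, under those symbols, were not analysed here. The members and gene lists were chosen with earlier results of these data known.

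Counts were summed over the Retnlg cells of a library and divided by their total (CPM). Log2 ratios use CPM plus 1, which understates differences of low genes. The size rule was 20 CPM in at least 1 library and 2-fold; with 1 library per condition there is no test. Intervals are exact Poisson (CPM) and Clopper-Pearson (shares). Thinning drew 1000 UMIs per cell with a fixed seed. The macrophage share is C1q-cell CPM times the ratio of C1q transcripts. Coordinates and lengths are from GENCODE M21 (GRCm38), promoters from RefSeq GRCm38.p6. TMM and RLE factors came from edgeR 4.0.16 as scaling factors only. Reads of near-identical genes (Bcl2a1, Stfa, Ccl3 and Ccl4, histones) may be split or dropped.

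Named genes were the 6 markers, up to 5 per list with the largest ratios, the 15 highest and 15 lowest ratios of the same sign in 3 alternatives, the 15 leading genes over other cells and the 10 largest differences from C1q cells in each direction. Other list members are given for their roles, chosen after their values were seen. Some list members are not reported here.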

Additional observations from a re-analysis of the deposited data

Results flagged for a closer look

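Sparc, a matrix glycoprotein of stromal cells, had opposite differences in 2 kinds of cell. In Retnlg cells its log2 ratio was 3.66, from 67 UMIs with THP and 3 with vehicle, a CPM ratio of 28.5 (9.34 to 142). In C1q cells it was -1.52. Of the 67 THP UMIs in Retnlg cells, 98.5% lay in 1 cell, and without the top cell of each library the log2 ratio was -0.18. The difference between the 2 kinds of cell was not tested.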

How the results depend on the processing

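No paired analysis was possible because each condition had 1 library. The counts of 102 higher and 556 lower genes became 181 and 216 with TMM, 183 and 211 with RLE and 198 and 103 after centring by transcript length. They were 48 and 125 at a floor of 100 CPM, 313 and 1263 with no floor, 232 and 1596 at 1.5-fold and 46 and 71 at 3-fold. Lower genes numbered 866 at a Retnlg limit of 50 and 370 with a pseudocount of 5 CPM. The share of Retnlg cells in the THP library was 6.91%, 5.12% and 3.89% at limits of 5, 20 and 50, 6.90% when cells were thinned first and 30.8% with S100a8 plus S100a9 at 100 or more in place of Retnlg. In the vehicle library these were 10.4%, 8.04%, 6.495%, 10.7% and 39.5%.

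Of 85 named genes past the limit, 77 had the same sign under every alternative run. A kept sign is not a kept call, and the floor, fold and pseudocount settings cannot change a sign. Many of the 77 were within the 2-fold limit under some setting. With equal weight per cell these included Ccr2 (log2 ratio -0.75), the glycolysis gene Hk1 (-0.79), Vcan (-0.98) and the osteoclast-like marker Mmp12 (-0.93). The other 8, which did not keep their sign, are given here. At limits of 20 and 50, without the 5% of cells with most UMIs and without each gene's top cell, the log2 ratio was -0.75, 0.0, -0.76 and -0.32 for Cald1, -1.01, -0.995, -0.52 and -0.18 for Sparc, and -1.38, -1.58, -1.46 and -1.05 for Timp1. At a limit of 50 it was -0.58 for Tagln and -0.22 for Ube2c. For the basophil genes it was 1.29 (limit 50), 0.91 (no C1q UMI) and 0.39 (no top cell) for Mcpt8, 0.79, 1.06 and 0.64 for Prss34, and 0.51 and 0.38 (the last 2 settings) for Cpa3. Depth limits genes near the floor of 20 CPM, where 1 cell can decide a ratio.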

Other observations

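The vehicle Retnlg cells included 1 cell with 15069 UMIs whose transcripts were those of a basophil or mast cell. It gave 1011 of 1018 UMIs of the 6 markers of those cells. Prss34 and Mcpt8, basophil proteases, and Cpa3, a mast cell carboxypeptidase, stood at 124, 79.5 and 32.3 CPM with vehicle and at 1.25, 0.62 and 0.94 CPM with THP. Without the top cell of each library the log2 ratios were 0.64, 0.39 and 0.38.

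Early granule genes differed between the libraries in where they lay along the ranges. With THP, Elane was at 57.9, 985, 523 and 35.6 CPM across the 4 ranges of granule transcripts, from low to high, and Mpo at 134, 1056, 544 and 47.0 CPM. With vehicle, Elane was at 409, 284, 347 and 79.1 CPM and Mpo at 582, 332, 364 and 72.0 CPM. In CPM both were highest in the second range with THP and in the lowest range with vehicle. Single cells can weigh heavily within a range, so no order is read from these peaks. The 6 progenitor markers had a UMI in 404 THP and 643 vehicle cells. Over all ranges together, 1 cell of each library gave 11.6% and 13.3% of their UMIs, 864 with THP and 856 with vehicle.

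Retnlg itself was highest in the middle of the continuum. It stood at 7783, 9537, 13087 and 8703 CPM with THP and at 9949, 18137, 13593 and 11456 CPM with vehicle across the ranges, while S100a9 was at 103119, 118153, 180575 and 211940 CPM and at 74650, 112227, 127424 and 178157 CPM.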
